A study of Homo sapiens with 4 samples.

Results

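The 6 genes DNAJB9, HYOU1, SEL1L, SYVN1, WFS1 and SEC24D serve protein folding, degradation and export at the endoplasmic reticulum (ER), and all 6 were lower after HRP2 knockdown in LP-1 cells. They were selected by symbol from the 684 genes of the authors' deposited gene table and the 1040 transcripts of the authors' deposited transcript table. All 6 have a row in the first and 1 of them, DNAJB9, has a row in the second. Their direction in this comparison was known when they were grouped, so their values are given as a description, without a test.

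LP-1 is an established human multiple myeloma line, labelled as a B lymphoblast, and was grown in medium with serum. Both groups carried a lentiviral guide RNA construct. In the control group (2 libraries) it was a non-target construct, and in the knockdown group (2 libraries) it was directed at HRP2, the chromatin reader encoded by HDGFL2. The labels do not say whether the cells were clones or pools, whether the libraries within a group stem from different cultures, or whether the guide edited or repressed the gene. Total RNA was sequenced, and for each gene the authors gave the log2 ratio of the knockdown level to the control level (the log2 fold change) with its Q value, a p-value adjusted for the number of genes. A called gene here is one in the authors' deposited table, where every Q value was under 0.05. No value per library was used, so no fold change carries an SD, and the depth behind it is unknown. In RNA from a whole culture, fewer cells of a kind and less RNA per cell cannot be told apart.

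Proteins that enter the ER are folded there by HSP70- and HSP40-type chaperones and by disulfide isomerases. Chains that fail to fold are handed by SEL1L to the membrane ubiquitin ligase SYVN1 (also called HRD1), drawn back to the cytosol and degraded by the proteasome, a route known as ER-associated degradation. Folded cargo leaves in vesicles coated by COPII, in which SEC24 proteins select the cargo. The unfolded protein response, with its sensors IRE1, PERK and ATF6, adjusts these genes to the load, and plasma cells, which secrete antibody, depend on it through XBP1. Its target promoters are known for the ER stress response element (ERSE), which joins a CCAAT box bound by NF-Y to a CCACG box bound by ATF6.

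The promoter windows of 5 of the genes are shown because the elements read by ATF6 and XBP1 lie close to the gene start. The shared direction of the genes was known when they were grouped. RefSeq windows (build GRCh38.p14) run from 250 bases before the gene start to 50 bases after it, and 5 of the 6 genes had one. SEC24D had no window, so no motif was sought for it. The windows shown are HYOU1 at chr11:119057156-119057455 (minus strand), DNAJB9 at chr7:108569624-108569923 (plus strand), SYVN1 at chr11:65134470-65134769 (minus strand), SEL1L at chr14:81533804-81534103 (minus strand) and WFS1 at chr4:6269600-6269899 (plus strand), each written 5′ to 3′ in the direction of the gene. Capitals mark every match to the CCAAT box, the CCACG box or the UPR element (UPRE, TGACGTGG), on either strand.
HYOU1: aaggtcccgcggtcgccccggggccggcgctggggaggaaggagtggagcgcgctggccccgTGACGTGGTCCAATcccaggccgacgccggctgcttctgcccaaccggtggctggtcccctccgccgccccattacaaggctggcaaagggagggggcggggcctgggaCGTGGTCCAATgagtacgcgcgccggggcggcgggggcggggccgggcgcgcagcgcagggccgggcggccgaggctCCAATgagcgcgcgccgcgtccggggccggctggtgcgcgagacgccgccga
DNAJB9: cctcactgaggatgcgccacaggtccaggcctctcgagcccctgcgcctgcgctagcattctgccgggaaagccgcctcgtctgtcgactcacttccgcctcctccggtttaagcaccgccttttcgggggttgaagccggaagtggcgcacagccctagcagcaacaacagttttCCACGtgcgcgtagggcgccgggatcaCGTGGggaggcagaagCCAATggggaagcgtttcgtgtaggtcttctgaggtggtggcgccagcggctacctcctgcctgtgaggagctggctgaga
SYVN1: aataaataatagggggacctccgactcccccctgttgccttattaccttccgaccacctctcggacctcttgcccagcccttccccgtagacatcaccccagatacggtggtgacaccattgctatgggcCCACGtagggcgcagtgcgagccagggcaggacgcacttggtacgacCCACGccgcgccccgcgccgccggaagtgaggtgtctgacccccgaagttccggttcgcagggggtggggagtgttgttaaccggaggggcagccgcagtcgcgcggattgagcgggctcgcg
SEL1L: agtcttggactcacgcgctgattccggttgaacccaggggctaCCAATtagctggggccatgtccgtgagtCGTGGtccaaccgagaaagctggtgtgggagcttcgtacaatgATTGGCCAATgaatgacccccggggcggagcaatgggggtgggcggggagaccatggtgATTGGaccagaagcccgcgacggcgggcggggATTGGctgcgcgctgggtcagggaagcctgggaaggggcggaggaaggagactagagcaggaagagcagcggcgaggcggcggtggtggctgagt
WFS1: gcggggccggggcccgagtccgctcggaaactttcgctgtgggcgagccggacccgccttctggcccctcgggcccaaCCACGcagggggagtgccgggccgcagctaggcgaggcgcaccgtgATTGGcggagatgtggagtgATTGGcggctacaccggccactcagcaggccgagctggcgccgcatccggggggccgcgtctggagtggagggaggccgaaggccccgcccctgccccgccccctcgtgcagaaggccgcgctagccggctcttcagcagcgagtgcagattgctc

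HYOU1 stood out by these letters. Its window held 2 matches to ERSE-II, a compact form of the element in which the CCAAT box lies on the strand opposite to the CCACG box, a single base apart. They lay at bases -185 to -175 and -79 to -69, counted from the gene start. The first of them overlapped a match to UPRE at -188 to -181. ERSE-II was found in 19 of 35116 RefSeq windows (0.0541%), and HYOU1's was the 1 window among them with 2 matches. UPRE was found in 256 windows (0.729%).

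The other 4 windows held no exact match to ERSE (a CCAAT box followed by a CCACG box on the same strand, 9 bases apart), ERSE-II or UPRE. Each had at least 1 CCACG box, as did 38.1% of all windows, and DNAJB9, SEL1L and WFS1 also had a CCAAT box, as did 34.6% of all windows. In DNAJB9 the CCACG boxes lay at -74 to -70 and, on the opposite strand, at -47 to -43, with a CCAAT box at -31 to -27. With 1 mismatch allowed, 4 of the 5 windows matched ERSE, beside 1.55% of all windows, and 3 matched ERSE-II, beside 1.23% of all windows. The ERSE matches lay at -134 to -116 in SYVN1, -207 to -189 in SEL1L, -140 to -122 in WFS1 and -2 to 17 in HYOU1. The ERSE-II matches were the 2 exact ones of HYOU1, 1 at -126 to -116 in SYVN1 and 1 at -179 to -169 in SEL1L. DNAJB9 had neither. A match describes letters in this window and is not evidence that a factor binds there. The TGATGNAA letters of the CARE element, read by ATF4 and CHOP, occurred in none of the 5 windows and in 3.62% of all windows.

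**Figure D1:**
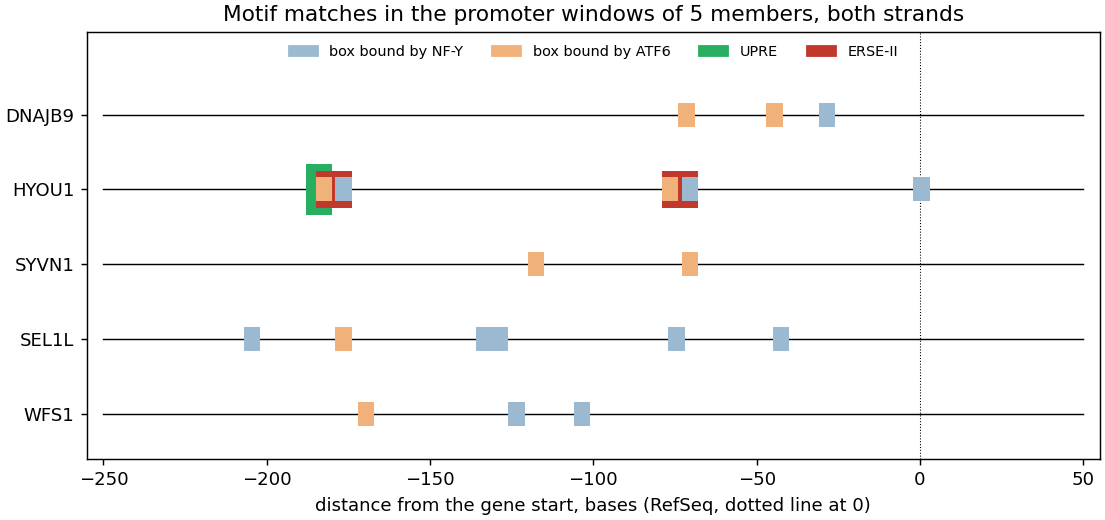
Positions of motif matches in the promoter windows of 5 genes, on either strand. The x axis is the distance from the RefSeq gene start in bases. Coloured blocks are matches to CCAAT (labelled as the box bound by NF-Y), CCACG (labelled as the box bound by ATF6), UPRE and ERSE-II. Overlapping matches are drawn on top of each other. A match to a single box is not an ERSE and does not show binding. HYOU1 is the gene with ERSE-II matches, at -185 and -79, and with a UPRE match.

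The knockdown itself was visible in the targeted transcript. HDGFL2 was at 0.388 times the control level in the authors' deposited table (log2 fold change -1.37). The table held 323 lower and 361 higher genes, with a median log2 fold change of -0.78 among the lower ones. Of the 24237 mRNA genes that the authors list, 2.81% were called and 1.32% were called lower. The list does not give expression levels, so genes silent in LP-1 count in that background.

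DNAJB9, an HSP40 co-chaperone of the ER lumen that assists the HSP70 chaperone BiP, fell most. Its level in the knockdown was 0.412 times that of the control in the authors' deposited table, a log2 fold change of -1.28 (Q = 7.28e-07). This made it the 47th lowest of all called genes and the 23rd by Q value. The remaining chaperone of the group, HYOU1, is an ER-resident relative of HSP110 that recharges BiP with nucleotide. HYOU1 was at 0.643 times the level in controls in the authors' deposited table (log2 fold change -0.64, Q = 0.0184).

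The degradation pair fell by similar amounts. SYVN1, the ligase, had a knockdown level 0.57 times that of the control in the authors' deposited table (log2 fold change -0.81, Q = 0.00142). SEL1L, the adaptor that stabilises the ligase and brings it substrates, was at 0.651 times the level in controls there (authors' deposited table, log2 fold change -0.62, Q = 0.0444). SEL1L had the smallest change of the 6 and the Q value closest to the authors' limit. Whether the 2 changes differ cannot be tested without values per library.

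WFS1 and SEC24D act at the ER membrane and at its exit sites. WFS1 encodes wolframin, an ER membrane glycoprotein linked to calcium balance and to the control of ATF6, and it is mutated in Wolfram syndrome. It was at 0.52 times the level in controls in the authors' deposited table (log2 fold change -0.94, Q = 0.00309). SEC24D, a cargo-binding subunit of the COPII coat, was at 0.574 times the level in controls there (authors' deposited table, log2 fold change -0.80, Q = 0.0177).

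The 6 changes were of ordinary size for called genes. Their median log2 fold change was -0.81, beside -0.78 for all 323 lower genes of the authors' deposited table. DNAJB9 exceeded 85.4% of the lower genes in size of change, WFS1 69.0%, SYVN1 53.3%, SEC24D 52.3%, HYOU1 30.0% and SEL1L 26.3%. None of the 6 shared a 31-nucleotide word of its longest coding transcript with a transcript of another gene, so that reads of related genes had no identical stretch of that length to be split over.

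**Figure D2:**
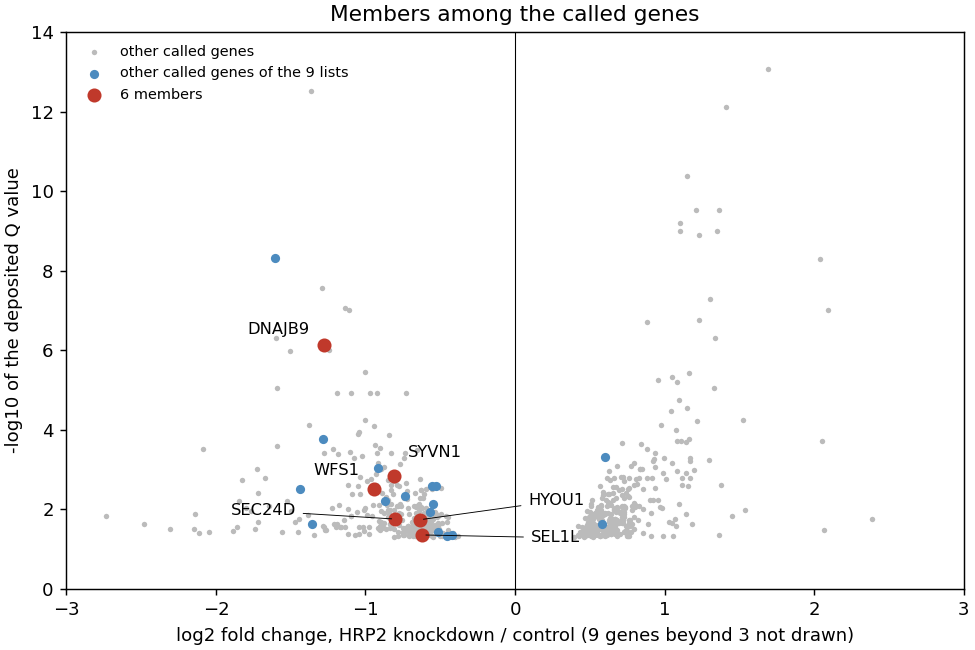
Log2 fold change of knockdown over control (x axis) against the -log10 of the deposited Q value (y axis) for the called genes. Each point is 1 gene, the 6 genes described here are red, other called genes of the 9 gene lists are blue, and 9 genes beyond a log2 fold change of 3 are not drawn. DNAJB9 lies apart at a log2 fold change of -1.28, and the remaining 5 genes lie between -0.94 and -0.62, within the mass of lower genes.

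The genes around them were read through 9 lists of 226 genes in all, drawn up from general knowledge of the secretory pathway with earlier results of these data known. Of the 200 genes in the 8 lists of ER and secretory genes, 16 were lower (8.0%) and 1 was higher (0.5%) in the authors' deposited table. Over all listed mRNA genes 1.32% were lower and 1.49% higher. The 6 genes described here are among the 16. Without them, 10 of the other 194 genes were lower and 1 was higher. The 17 called genes had a median log2 fold change of -0.62, and the 11 of them outside the 6 had one of -0.55. The median of all 684 called genes, 0.47, is that of a mix of 361 higher and 323 lower genes. For the 183 uncalled genes the size of the difference is not known.

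The list of folding enzymes and chaperones had the most called genes. Of its 43 genes, 7 were lower (16.3%) and 1 higher (2.33%), beside 1.32% and 1.49% of all listed mRNA genes. Without DNAJB9 and HYOU1, 5 of 41 were lower. CDNF, an ER-resident relative of the stress-induced factor MANF, had the largest change, with a log2 fold change of -1.44 (Q = 0.00309) in the authors' deposited table. HSPA13, a microsome-associated HSP70, was at -0.87 (Q = 0.00619) there (log2 fold change, authors' deposited table). The disulfide isomerase family had 3 of 17 genes called, all lower, where 2.81% of all listed mRNA genes were called. In the authors' deposited table the log2 fold changes were -0.56 for P4HB, the classical protein disulfide isomerase, -0.55 for TXNDC11 and -0.74 for TXNDC5. Of the sequence words of TXNDC5, 89.6% also occur in other genes, mainly in the readthrough BLOC1S5-TXNDC5, so its value is uncertain. The exception was ERO1A, the oxidase that reoxidises protein disulfide isomerase, which was higher, at 0.58 on the log2 scale in the authors' deposited table (Q = 0.0236).

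Entry into and exit from the ER also had called genes, all lower. From 26 genes of translocation and signal peptide processing, 3 were called (11.5%, beside 2.81% of all listed mRNA genes). In the authors' deposited table SEC61A1, the pore of the translocon, had a log2 fold change of -0.57 (Q = 0.0119). SERP1, a small translocon-associated protein, was at -0.53 there (log2 fold change, authors' deposited table, Q = 0.00259). SSR3, a subunit of the translocon-associated protein complex, was at -0.46 (log2 fold change, authors' deposited table, Q = 0.048). Of 28 COPII and ER exit genes 3 were called (10.7%, beside the same 2.81%). Beside SEC24D these were MIA2 at -0.52 and SURF4 at -0.42 (log2 fold changes, authors' deposited table), both of which help load cargo at exit sites. Their Q values were 0.0367 for MIA2 and 0.0433 for SURF4. SEC24D was the 1 called gene among the 6 SEC23 and SEC24 genes.

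SEL1L and SYVN1 were the called genes of the 34 for ER-associated degradation, 5.88% of that list, beside 2.81% of all listed mRNA genes. Both were grouped with their direction known, and none of the other 32 was called. WFS1, grouped in the same way, was the called gene of the 21 sensors and transducers of the unfolded protein response, and none of the other 20 was called. No gene of N-glycosylation (30), ER calcium handling (12) or ER-phagy (6) was called. The sensor genes ERN1, EIF2AK3 and ATF6, the factor XBP1 and the chaperone gene HSPA5, which encodes BiP, were therefore not in the authors' deposited gene table.

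The ATF4 and CHOP targets, which lie downstream of PERK and of other stress kinases, formed the list outside the ER itself. Of 26 genes 4 were lower (15.4%) and 1 was higher (3.85%), beside 1.32% and 1.49% of all listed mRNA genes. The median log2 fold change of the 5 was -1.28. In the authors' deposited table the log2 fold changes were -1.61 for TRIB3, a stress-induced pseudokinase, -1.36 for BBC3, a pro-apoptotic BCL2 family gene, -1.28 for the transcription factor gene CEBPB and -0.92 for the death receptor gene TNFRSF10B. DDIT4, an inhibitor of mTORC1 signalling, was higher at 0.60 (log2 fold change, authors' deposited table). ATF4 and DDIT3, which encodes CHOP, were not called.

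**Figure D3:**
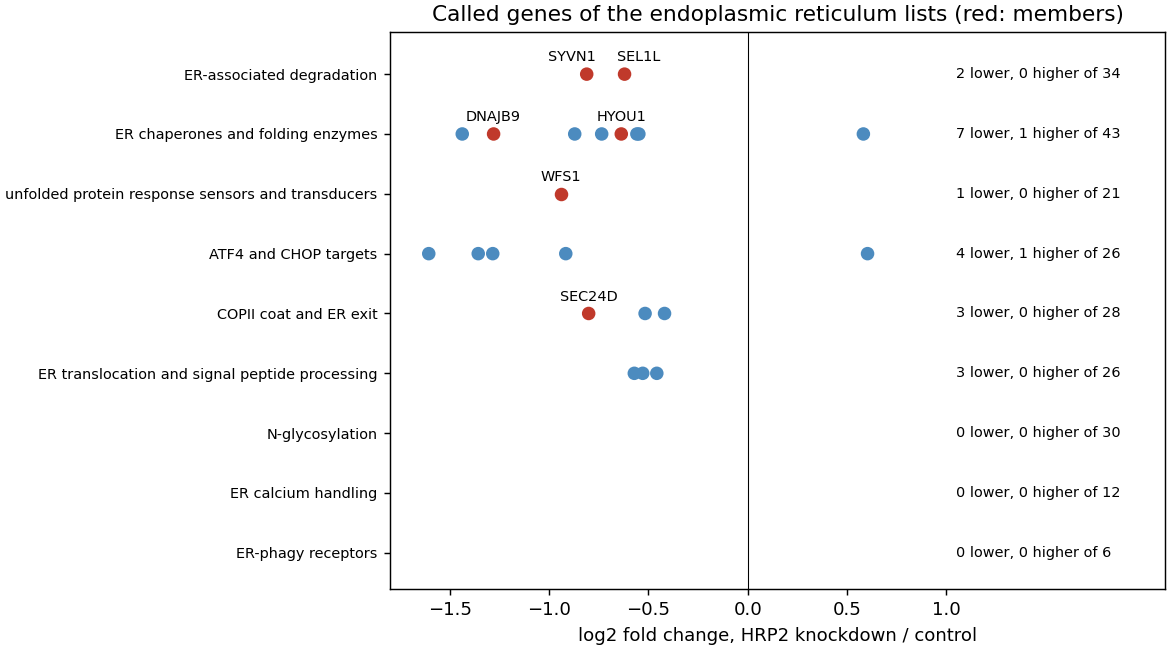
Log2 fold changes (x axis) of the called genes of each of 9 gene lists (y axis), 1 point a gene, with the 6 genes described here in red and named. The text on the right gives how many genes of each list were lower and higher. Of the points, 20 lie below 0 and 2, ERO1A and DDIT4, lie above it.

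The chaperone families to which DNAJB9 and HYOU1 belong went both ways. Of 42 HSP40 genes 5 were called, and DNAJB9 was the 1 that was lower. DNAJB6, DNAJC2, DNAJB1 and DNAJA1, whose proteins work in the cytosol and nucleus, had log2 fold changes of 0.51 to 1.21 in the authors' deposited table. Of 16 HSP70 and HSP110 genes 7 were called. HYOU1 and HSPA13, both of the ER, were lower, and HSPA4L, HSPA1B, HSPH1, HSPA6 and HSPA8, all outside it, had log2 fold changes of 0.92 to 1.69 in the authors' deposited table. The 3 called ER genes of these families were thus lower and the 9 others higher. Of the 3, DNAJB9 and HYOU1 were grouped with their lower direction known, so HSPA13 alone was not chosen that way. Other ER genes of these families, HSPA5 among them, were not called. Over all listed mRNA genes 2.81% were called. HSPA1B (74.4%) and HSPA6 (56.7%) share most of their sequence words with other genes, so their single values are uncertain. The difference between the compartments was not tested.

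**Figure D4:**
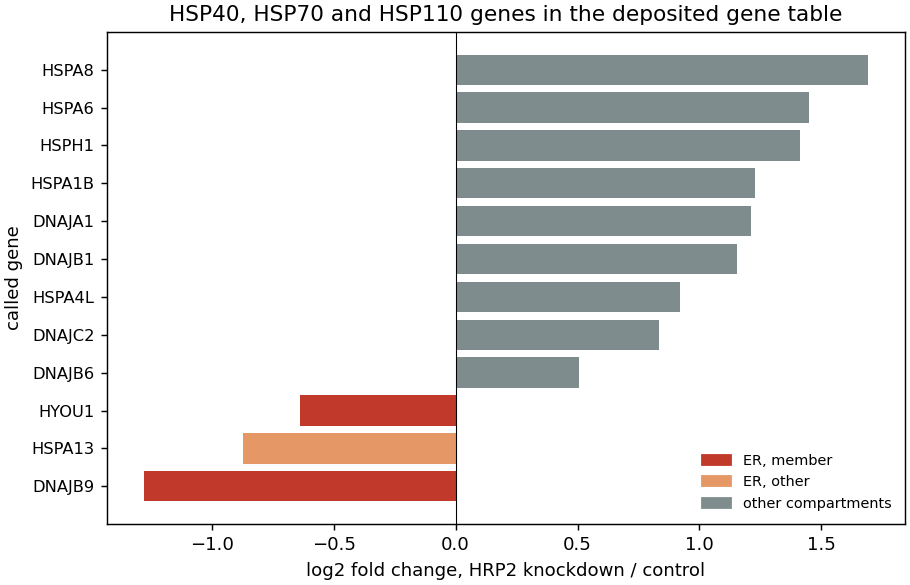
Log2 fold change of knockdown over control (x axis) for each called HSP40, HSP70 and HSP110 gene (y axis), as bars from 0. The 3 genes of the ER, DNAJB9, HSPA13 and HYOU1, lie between -1.28 and -0.64, and the 9 genes of other compartments lie between 0.51 and 1.69.

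Direction in the gene table went with base composition, and the 6 genes lay in all 4 quartiles of GC content. The GC content of their transcripts ran from 40.4% for DNAJB9 and 41.0% for SEL1L through 47.8% for SEC24D and 55.3% for HYOU1 to 58.6% for SYVN1 and 61.4% for WFS1. In the lowest quartile, which holds DNAJB9 and SEL1L, 24.3% of all called genes were lower, and in the second, which holds SEC24D, 26.6%. In the third, which holds HYOU1, 52.7% were lower, and in the highest, which holds SYVN1 and WFS1, 85.2%. The other called genes of the 8 ER lists, the 6 left out, were lower in 3 of 3 cases in the lowest quartile, 1 of 2 in the second, 5 of 5 in the third and 1 of 1 in the highest.

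Of 8 plasma cell markers 3 were called, all lower (1.32% of all listed mRNA genes were called lower), with log2 fold changes of -0.63 for IRF4, -0.48 for TNFRSF17 and -0.45 for SDC1 in the authors' deposited table. None of 8 markers of other blood cells was called. The tables hold no levels, so it cannot be seen which markers were present or absent in LP-1, and the part of these genes in the ER result was not tested.

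In the transcript table, DNAJB9 had a log2 fold change of -1.28 (Q = 0.0288), the same to 2 decimals as its gene in the authors' deposited gene table. DNAJB9 has 1 RefSeq transcript in GRCh38.p14, whereas the other 5 genes have 2 to 15, and none of their transcripts was called. Of the 1040 called transcripts 49.0% were lower, and of the 23 that belong to the 9 lists 19 were lower. For the 8 transcripts of called list genes with an absolute log2 fold change under 6, the direction was that of the gene in all 8, and the values differed by at most 0.10. They belong to DNAJB9, P4HB, TXNDC5, TXNDC11, SEC61A1, SERP1, TRIB3 and DDIT4. A second TRIB3 transcript was at -9.24 (log2 fold change, authors' deposited transcript table).

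The 12 list transcripts with an absolute log2 fold change of 6 or more, TRIB3's among them, were 10 lower and 2 higher. Of all called transcripts of that size 50.5% were lower. OS9, named here after its values were seen, encodes a lectin that passes misfolded glycoproteins to SEL1L. It had 2 transcripts, at -10.48 and -10.24 (log2 fold changes, authors' deposited transcript table), and was not called as a gene. No level is given for these transcripts, so how much of the OS9 RNA they make up is not known. The 2 higher transcripts were of SEC16A and ALG1, also named after their values were seen. SEC16A, of the COPII list, had transcripts at -9.81 and 9.17, and ALG1, of N-glycosylation, had 1 at 8.51 (log2 fold changes, authors' deposited transcript table). Neither was called as a gene. Among the 1040 called transcripts 823 were at 6 or more, of which 822 matched a gene, and 759 of these belonged to genes that were not called.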

How the data were processed

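RNA sequencing of 4 LP-1 libraries (2 knockdown, 2 control) was processed by the authors. The submitters' processing notes name BWA, Bowtie2, RSEM and the build hg19. Not given in the sources used here: roles, versions, normalization, strandedness, filters and the test. The log2 fold changes and the Q values (adjusted p-values) are the authors' own, as deposited, per the file headers. Other deposited columns are names and RNA types, with no value per library, so no test, SD or depth could be computed and the planned library-level tests were not run.

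Genes were matched by gene ID through RefSeq (GRCh38.p14), with no coordinate transferred between builds. GC content was the median over coding transcripts in GENCODE 29, for 676 of 684 genes. Motifs were sought on both strands (pandas 2.3.3, Python 3.11.15), with the search tested on simulated sequences. The members and lists were chosen with earlier results of these data known. Named are the 6 members, HDGFL2, every called list gene, and the transcripts of members and of called list genes. Further names are marked where they occur. The HSP40 and HSP70 families and the disulfide isomerases were sets matched by chosen gene symbols, so relatives with other symbols were not counted. The markers were chosen lists. Every called gene of these sets was named.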

Additional observations from a re-analysis of the deposited data

How the results depend on the processing

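With a Q value under 0.01 the lower members fell in number from 6 to 3 (DNAJB9, SYVN1 and WFS1), the lower list genes from 20 to 12 and the higher ones from 2 to 1. At 1 or more in absolute log2 fold change these counts were 1 (DNAJB9), 5 and 0. By genes with a called transcript in that direction, 1 member and 16 list genes were lower and 4 list genes higher. These counts take in list genes that were not called as genes, and SEC16A counts in both directions. Of the 22 called list genes, 8 had a called transcript. Among transcripts, a Q value under 0.01 left 0 of 1 member transcript, 11 of 19 lower and 2 of 4 higher list transcripts. A log2 fold change of at least 1 left 2 higher ones, and keeping those under 6 left 9 lower and 2 higher. Allowing 1 mismatch raised the ERSE and ERSE-II matches in the members' windows from 2 to 8. Leaving out genes sharing sequence, an alternative chosen after seeing the data, gave 6 members and 19 lower list genes. Fewer features pass a stricter limit by construction. No paired analysis was possible because the deposited tables hold no values per library, and for the same reason leaving out a library, another normalization and another filter were not run.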

Other observations

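UPRE, the element matched in HYOU1's window, was also sought in the windows of the called genes that had one, 256 of 323 lower and 295 of 361 higher genes. It occurred in 7 of 406 windows of lower genes (1.72%), in 3 of 418 windows of higher genes (0.718%) and in 0.729% of all RefSeq windows. ERSE-II occurred in 1 window of each direction, HYOU1's among lower and ZNF143's among higher genes. The CCACG box occurred in 45.6% of the windows of lower and 50.5% of those of higher genes, and both boxes together in 15.8% and 16.7%. The CCAAT box occurred in 37.2% and 34.4%, and CARE in 2.46% and 1.44%. These shares were not tested. The 7 lower genes with UPRE were HYOU1, SSR3, TXNDC5, TXNDC11, STX5, GOLGA5 and SMIM14, of which the last 3 are outside the lists and were named after their values were seen. In the authors' deposited table STX5, a SNARE of ER to Golgi transport, had a log2 fold change of -0.74 (Q = 0.000529), GOLGA5, a golgin, -0.49, and SMIM14 -0.91. The ERSE occurred in 27 of 35116 windows, of which 2 belong to lower genes and 0 to higher ones. The 2 are those of SERP1 and its neighbour EIF2A, which overlap and hold the same match at chr3:150546710-150546728 (GRCh38.p14). EIF2A, an initiation factor gene, was at -0.61 in the authors' deposited table (log2 fold change, Q = 0.0041).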
